A study of Mus musculus with 6 samples.

Results

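The set described here holds 36 genes for glucose uptake, glycolysis, lactate handling and the response to low oxygen. They were taken by name from the deposited table, in which 35275 rows each stand for a gene, and all 36 had a row. The 6 libraries are RNA sequencing of 3T3, a mouse embryonic fibroblast line that grows without limit in culture. In 3 of them the cells expressed a control construct, and in the other 3 they expressed an overexpression construct for NNMT, a cytosolic methyltransferase that spends S-adenosylmethionine on nicotinamide. Every culture had spent 48 h in methionine-free DMEM to which methionine (10 µM) and dialyzed FBS (10%) were added back. The sources used here do not state the promoter of the construct, the species of its coding sequence, or whether the libraries of a group came from separately transduced cells. The p-values below then measure the spread between these libraries. Levels are FPKM (fragments scaled to gene length and library size), a unit inferred from the values because the table's header names none. Values are mean ± SD with n = 3 per group. Per-library values follow the order control replicates 1, 2 and 3, then the NNMT library whose column carries no number and NNMT replicates 2 and 3. Log2 fold changes compare NNMT with control cells on log2(FPKM + 1), which understates the change of low genes, and a gene rose or fell where limma's adjusted p was under 0.05. Folds are ratios of group mean FPKM.

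Glycolysis splits glucose into pyruvate in the cytosol, and lactate dehydrogenase turns pyruvate into lactate when NADH must be reoxidised there. Growing fibroblasts in culture use this route heavily. The transcription factor HIF, an alpha subunit joined to ARNT, raises many of these genes when oxygen is low. In normal oxygen the EGLN prolyl hydroxylases mark the alpha subunit for destruction by the VHL ubiquitin ligase, so that HIF is controlled largely at the protein and not the mRNA level.

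Whole reads recovered from the FPKM values summed to between 31620258 and 39980004 per library. Mouse Nnmt had 7.605, 5.25 and 6.51 FPKM in the control libraries. In the NNMT libraries Nnmt had 15.7, 15.03 and 18.3 FPKM (log2 fold change 1.23 with SE 0.108, adjusted p = 4.75e-06). The direction matched the labels, and 98.4% of all genes tested had a lower log2 fold change. As the species of the coding sequence is not stated, these reads may not come from the construct and are only a limited check of the labels. Of 12 fibroblast marker genes 11 reached 1 FPKM, and their summed level was 8176 to 8447 FPKM in control and 10357 to 11754 FPKM in NNMT libraries. These markers split: of the 11 tested, 5 rose, among them the abundant Col1a1 and Col1a2, and 4 fell (Thy1, Vim, S100a4 and Lum). The macrophage, endothelial, epithelial and adipocyte lists each summed to at most 3.35 FPKM in every library, and Epcam, Krt18, Krt19, Cldn4, Emcn, Tie1, Adipoq, Cidec, Myod1 and Myog were at 0 throughout. The skeletal muscle list summed to between 0.975 and 6.39 FPKM in control libraries, the highest in replicate 1, and to between 1.52 and 2.28 FPKM in NNMT libraries. The part of these marker levels in the results was not tested.

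The glycolysis and hypoxia genes moved in both directions. Of the 36 genes, 30 reached the mean of 1 FPKM needed for the test. In NNMT cells 10 of these rose, beside 35.0% of all 10882 genes tested, and 11 fell, beside 30.6%, so that 21 changed in either direction beside 65.6%. As shares of the 30 these are 33.3% and 36.7%, close to the background, and the median log2 fold change was -0.06 against 0.03 for all genes tested. The changes of at least 0.5 on the log2 scale were 4 rises (Adm, Ndrg1, Pfkfb3 and Pfkm; background 9.64%) and 6 falls (Pgk1, Ldha, Eno1, Gpi1, Egln1 and Pfkp; background 9.38%). The NNMT libraries were all above the control libraries for 10 of the 30 (background 37.2%) and all below for 11 (background 32.7%), leaving 9 with overlap where 69.9% of genes tested had none. In these bulk samples, fewer expressing cells and less RNA per cell cannot be told apart.

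**Figure D1:**
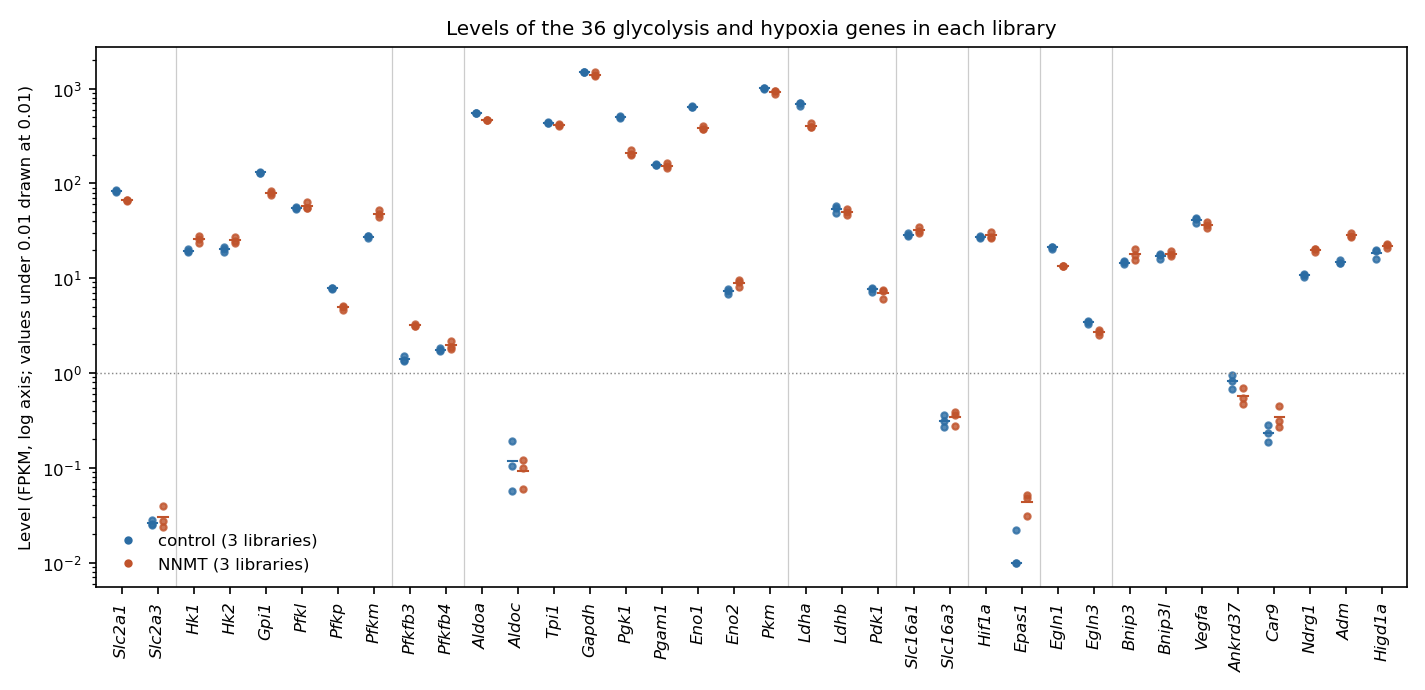
Level of each of the 36 genes in FPKM (log axis) in the 3 control (blue) and 3 NNMT (red) libraries, with a short line at each group mean. The dotted line marks 1 FPKM, and grey lines separate the functional groups. Levels run from 1496 FPKM for Gapdh in control cells to genes at or near 0 such as Epas1, and Pgk1, Ldha and Eno1 show wide gaps between the groups.

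**Figure D2:**
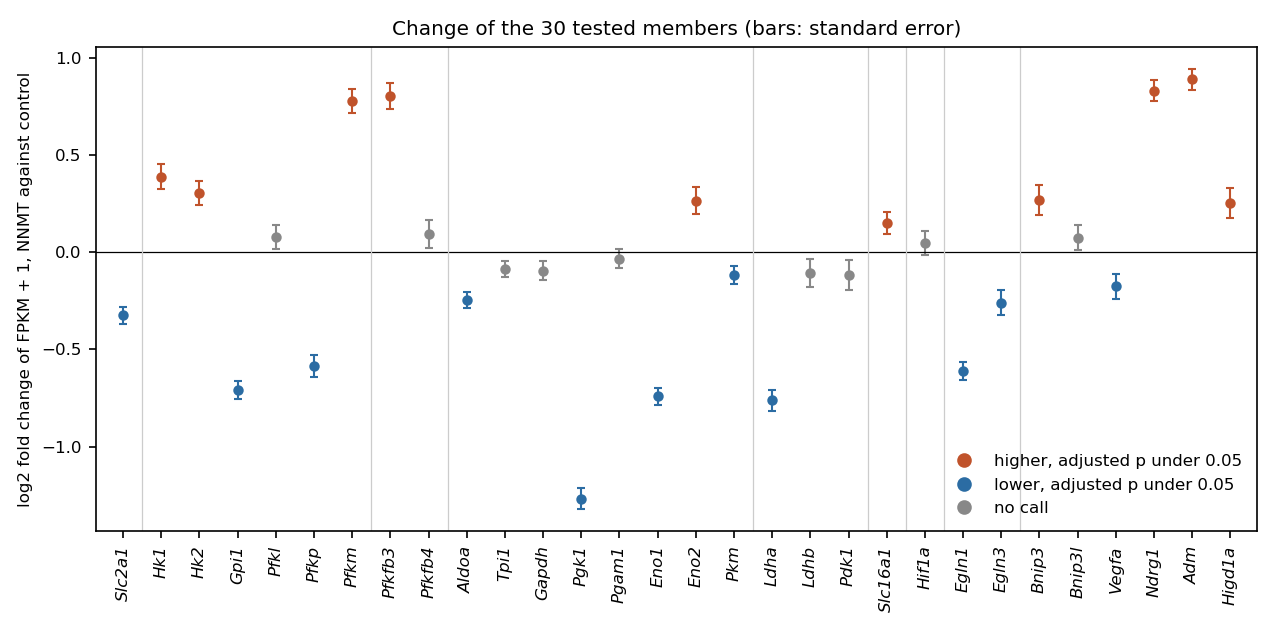
Log2 fold change on FPKM + 1, NNMT against control, of the 30 tested genes in order of their role, with bars for the standard error. Genes past an adjusted p of 0.05 are red (10 higher) or blue (11 lower). Pgk1 has the lowest value at -1.27 and Adm the highest at 0.89, and Pkm, which is drawn as lower, has a positive value under quantile normalization.

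Promoter letters are shown for 6 genes that passed the test, because the members are often grouped by the HIF binding core: Pgk1, Ldha and Egln1, which fell, and Adm, Bnip3 and Pfkfb3, which rose. Each line gives the 160 bases before a RefSeq start (GRCm38.p6), 5′ to 3′ on the gene's strand, and capitals mark the HIF core letters ACGTG or GCGTG on either strand.
Pgk1: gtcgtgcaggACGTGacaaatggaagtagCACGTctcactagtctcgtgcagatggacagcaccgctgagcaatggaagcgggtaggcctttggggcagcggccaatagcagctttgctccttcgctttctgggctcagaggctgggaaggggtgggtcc
Ldha: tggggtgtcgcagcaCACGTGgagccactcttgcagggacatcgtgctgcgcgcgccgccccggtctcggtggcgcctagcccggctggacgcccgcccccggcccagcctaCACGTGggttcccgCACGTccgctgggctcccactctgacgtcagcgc
Egln1: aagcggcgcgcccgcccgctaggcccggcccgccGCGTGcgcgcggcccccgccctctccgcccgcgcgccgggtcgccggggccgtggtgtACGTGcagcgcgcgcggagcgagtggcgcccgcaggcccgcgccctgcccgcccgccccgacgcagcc
Adm: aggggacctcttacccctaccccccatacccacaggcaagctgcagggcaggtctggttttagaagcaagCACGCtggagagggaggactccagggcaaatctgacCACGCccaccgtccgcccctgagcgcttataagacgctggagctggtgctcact
Bnip3: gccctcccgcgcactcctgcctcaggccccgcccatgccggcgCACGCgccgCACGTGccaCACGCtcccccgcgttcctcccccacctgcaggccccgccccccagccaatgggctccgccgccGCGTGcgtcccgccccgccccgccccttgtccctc
Pfkfb3: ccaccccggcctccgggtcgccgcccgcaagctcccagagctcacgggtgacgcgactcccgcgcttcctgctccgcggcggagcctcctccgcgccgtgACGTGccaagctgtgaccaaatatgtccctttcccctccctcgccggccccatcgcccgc
These stretches lie at chrX:106186940-106187099, plus strand (Pgk1), chr7:46845644-46845803, plus strand (Ldha), chr8:124949255-124949414, minus strand (Egln1), chr7:110627497-110627656, plus strand (Adm), chr7:138909507-138909666, minus strand (Bnip3) and chr2:11553930-11554089, minus strand (Pfkfb3). Ldha and Pfkfb3 each have another RefSeq start, which is not drawn. The letters after the Ldha start used here were not found in a GENCODE M21 transcript of the gene, and the window of its other start (chr7:46846832-46847131) holds no ACGTG and holds GCGTG 59 bases before and 41 after that start. The window of the other Pfkfb3 start (chr2:11502041-11502340) holds 2 matches each to ACGTG and GCGTG, and its ACGTG matches form 1 CACGTG. In the stretches shown, Ldha and Bnip3 hold 5 core matches each, Pgk1, Egln1 and Adm hold 2 each, and Pfkfb3 holds 1. Some matches are the same bases read on both strands: the E-box CACGTG, which contains ACGTG on each strand, occurs at 2 places in Ldha and at 1 in Bnip3. In Pgk1 the core letters lie 150 and 131 bases before the start, and in Adm, on the opposite strand, 90 and 54 bases before it.

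RefSeq windows of 250 bases before to 50 after a start were found for 32 of the 36 members, 46 windows in all, with none for Slc2a3, Bnip3l, Ndrg1 and Epas1. The letters ACGTG or GCGTG occurred in 37 of the 46 windows (80.4%), beside 43.8% of all 32851 windows in the table and 64.3% of the 10675 windows of genes tested. Among members that rose 8 of 9 genes with a window held a core in at least 1 window, among those that fell 10 of 11 did, and among those without a call 7 of 8 did, beside 70.5% of the 8344 tested genes with a window. The core letters were thus present in most members that rose, that fell and that had no call. CACGTG occurred in 6 windows, 4 of them in genes that rose and 1 in a gene that fell (13.04% of member windows, beside 10.4% of windows of genes tested).

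At the entry to the pathway the main glucose transporter fell while both hexokinases rose. Slc2a1 (ENSMUSG00000028645, chr4:119108711-119137983), the basal glucose transporter of fibroblasts, stood at 80.5, 85.9 and 82.8 FPKM in the control libraries. In the NNMT libraries it stood at 67.4, 65.98 and 64.9 FPKM, 1.26-fold lower with no overlap (log2 fold change -0.32 with SE 0.0451, adjusted p = 1.17e-04). Slc2a3, the high-affinity transporter of neurons, had 17 reads in all control libraries and 21 in all NNMT libraries and was not tested. Hk1 and Hk2 trap glucose in the cell as glucose phosphate. Hk1 rose 1.33-fold, from 19.4 ± 0.666 to 25.8 ± 2.42 FPKM (log2 fold change 0.39 with SE 0.06596, adjusted p = 4.51e-04). Hk2, the form more closely tied to growth and HIF, rose 1.247-fold, from 20.1 ± 1.12 to 25.1 ± 1.81 FPKM (log2 fold change 0.30 with SE 0.0621, adjusted p = 0.00154). All NNMT libraries lay above all control libraries for each hexokinase.

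The next enzyme, Gpi1, interconverts glucose and fructose phosphates and was among the strongest falls. Gpi1 (ENSMUSG00000036427, chr7:34201330-34230336) stood at 132, 129.6 and 129 FPKM in the control libraries. It stood at 79.5, 82.5 and 75.97 FPKM in the NNMT libraries. The lowest control library was thus well above the highest NNMT library, a 1.64-fold difference (log2 fold change -0.71 with SE 0.0464, adjusted p = 6.21e-07).

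Phosphofructokinase, which commits sugar to glycolysis and is a tetramer of subunits from 3 genes, had a different mix of subunit mRNAs in NNMT cells. Pfkm (ENSMUSG00000033065, chr15:98092589-98132451), the muscle-type subunit, stood at 27.6, 26.4 and 27.7 FPKM in the control libraries. In the NNMT libraries it stood at 51.8, 43.7 and 46.9 FPKM (log2 fold change 0.78 with SE 0.0614, adjusted p = 2.24e-06). Every NNMT value exceeded the highest control value by more than the range of either group. Pfkp (ENSMUSG00000021196, chr13:6579768-6648777), the platelet-type subunit, went the other way, from 7.86 ± 0.122 to 4.91 ± 0.275 FPKM (log2 fold change -0.58 with SE 0.0565, adjusted p = 9.05e-06), again without overlap. Pfkl, the liver-type subunit and the most abundant of the 3, had means of 54.99 ± 0.951 and 58.2 ± 5.23 FPKM in control and NNMT cells with overlapping libraries (log2 fold change 0.08 with SE 0.0614, adjusted p = 0.292). The span of Pfkm overlaps the expressed gene Senp1, and that of Pfkp overlaps Pitrm1, which had 38.8 and 36.7 FPKM in control and NNMT cells and no call. The sources used here do not say whether counting used strand.

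The shares within the family, which library scaling cannot move, gave the same picture. Pfkm went from 30.2% ± 0.8604 to 42.9% ± 0.776 of the summed Pfkl, Pfkp and Pfkm FPKM, in percent of the family. Pfkl went from 61.04% ± 0.814 to 52.6% ± 0.929, and Pfkp from 8.72% ± 0.0829 to 4.45% ± 0.213. None of the 3 shares overlapped between the groups, and each had an exact two-sided permutation p = 0.1, the smallest that 3 against 3 allows (0.144 adjusted over the 13 shares computed). Pfkfb3, the bifunctional enzyme whose kinase activity makes the main allosteric activator of phosphofructokinase, rose from 1.33, 1.37 and 1.51 FPKM in the control libraries to 3.14, 3.13 and 3.32 FPKM in the NNMT libraries. This was the largest ratio among the members that rose (2.28-fold; log2 fold change 0.81 with SE 0.0658, adjusted p = 2.82e-06), resting on 742 and 1810 reads. Its relative Pfkfb4 had means of 1.76 ± 0.0643 and 1.95 ± 0.208 FPKM with overlapping libraries (adjusted p = 0.278). Of the summed Pfkfb3 and Pfkfb4 FPKM, Pfkfb3 took 44.3% ± 2.37 and 62.1% ± 3.06 in control and NNMT cells, without overlap (exact permutation p = 0.1). Of the 13 shares, 9 did not overlap between the groups, about the 69.9% seen for the levels of all genes tested. The 4 that did were Hk1 among the hexokinases (49.1% ± 1.35 and 50.7% ± 2.204 in control and NNMT cells), Bnip3 beside Bnip3l (46.1% ± 1.99 and 49.6% ± 2.47), Aldoa beside Aldoc and Slc16a1 beside Slc16a3. Among the 9 are the shares of Slc2a1 and Hif1a. Their partners had few reads in control and NNMT libraries (Slc2a3 17 and 21, Epas1 4 and 26). The 3 phosphofructokinase shares depend on each other, so the 9 are not independent and the 69.9% is only a rough comparison.

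**Figure D3:**
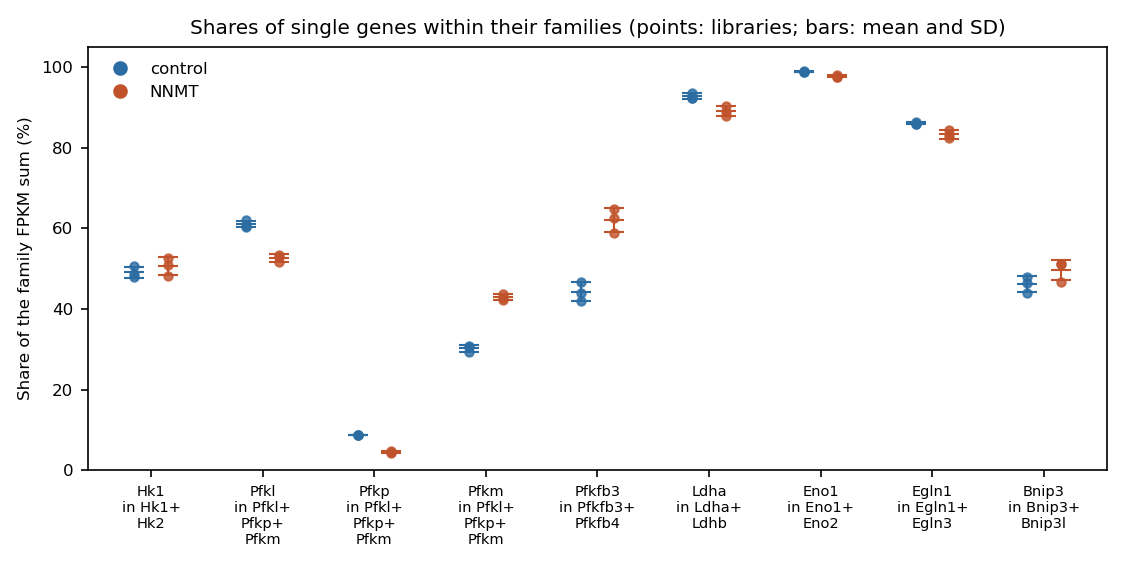
Share of the family FPKM sum taken by single genes, in percent, in each control (blue) and NNMT (red) library, with mean and SD. The Pfkm share lies between 42.3% and 43.8% in NNMT libraries and between 29.3% and 30.9% in control libraries, whereas the Hk1 and Bnip3 shares overlap.

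From aldolase to pyruvate kinase, Pgk1 and Eno1 fell most. Aldoa (ENSMUSG00000030695, chr7:126795234-126800751), the aldolase that cleaves the doubly phosphorylated hexose, fell 1.19-fold, from 552 ± 3.603 to 465 ± 2.19 FPKM (log2 fold change -0.25 with SE 0.0398, adjusted p = 3.28e-04), a call lost under quantile normalization (-0.04, adjusted p = 0.332). The other aldolase gene, Aldoc, had 36 reads in control and 29 in NNMT libraries and was not tested. Tpi1, which interconverts the triose phosphates, had means of 438 ± 3.54 and 412 ± 12.5 FPKM and missed the threshold (log2 fold change -0.09 with SE 0.0429, adjusted p = 0.103), although its NNMT libraries all lay below the control libraries. It passed without the unnumbered NNMT library (adjusted p = 0.0382) and with medians of ratios scaling (adjusted p = 0.0234), and turned positive under quantile normalization (0.07). Gapdh, which makes NADH in oxidising glyceraldehyde phosphate and is often used as a reference gene, was the most abundant member. It stood at 1492, 1511 and 1486 FPKM in the control libraries and at 1376, 1489 and 1344 FPKM in the NNMT libraries. The groups overlapped through NNMT replicate 2 and no call was made (log2 fold change -0.09 with SE 0.0481, adjusted p = 0.107). Without that library the adjusted p was 0.0170 for a lower level, and under quantile normalization Gapdh had a positive value that passed (0.18, adjusted p = 0.00799).

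Pgk1 (ENSMUSG00000062070, chrX:106187100-106203699) makes the first ATP of the pathway. It stood at 488, 503 and 515 FPKM in the control libraries and at 202, 223 and 199.8 FPKM in the NNMT libraries. The highest NNMT library was far under the lowest control library. This was the strongest fall among the members (2.41-fold lower; log2 fold change -1.27 with SE 0.0526, adjusted p = 2.99e-08), and 0.717% of all genes tested had a lower log2 fold change. Pgk1 is X-linked, and 90.2% of the 338 tested X-linked genes fell, with a median of -0.70. The part of that shift in the Pgk1 result was not tested.

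Eno1 (ENSMUSG00000063524, chr4:150236721-150248879), the enolase of most tissues, stood at 636, 647 and 649 FPKM in the control libraries. It stood at 378, 400.5 and 377 FPKM in the NNMT libraries, without overlap (1.67-fold lower; log2 fold change -0.74 with SE 0.0438, adjusted p = 3.12e-07). Chromosome 4, where Eno1 and Slc2a1 lie, had a median log2 fold change of -0.23 over 688 tested genes, and its part in these falls was not tested. Eno2, the neuronal enolase, rose from 7.26 ± 0.422 to 8.94 ± 0.759 FPKM (log2 fold change 0.27 with SE 0.0684, adjusted p = 0.00606), yet Eno1 still made up 97.7% ± 0.259 of the summed Eno1 and Eno2 FPKM in NNMT cells, beside 98.9% ± 0.0719 in control cells. Pgam1, the mutase between Pgk1 and enolase, had means of 158 ± 3.19 and 154 ± 7.78 FPKM with overlapping libraries (log2 fold change -0.03 with SE 0.0493, adjusted p = 0.582). Pkm, the pyruvate kinase of fibroblasts, stood at 988, 1023 and 1001 FPKM in the control libraries and at 944, 949 and 886 FPKM in the NNMT libraries. Its fall was small and barely passed (log2 fold change -0.12 with SE 0.0449, adjusted p = 0.0415). The call was lost without any 1 of the control libraries or without NNMT replicate 3 (adjusted p from 0.0724 to 0.152), with no filter (0.0583) and with no trend (0.0690), and the value turned positive under quantile normalization (0.11, adjusted p = 0.0643).

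Copies of these genes limit how exactly their reads can be placed, since the sources used here do not say how reads that match several places were handled. Transcripts of 2 other annotated genes matched Eno1 at 90% identity or more over at least 300 bases, and both were listed at high levels. The processed pseudogene Gm4735 went from 318 ± 10.2 to 184 ± 11.5 FPKM (log2 fold change -0.79, adjusted p = 9.02e-07), and Eno1b went from 135 ± 3.18 to 83.5 ± 5.47 FPKM (log2 fold change -0.69 with SE 0.0541, adjusted p = 2.05e-06). Both moved in the direction of Eno1 and by a similar amount. For Gapdh 87 of 159 such copies were above 0, led by Gm13394, which went from 247 ± 5.07 to 215 ± 22.2 FPKM (adjusted p = 0.0223). Copies of Pgk1 and Ldha summed to 0.211 and 0.398 FPKM in control cells, far under their parent genes. Ldhb had an expressed copy, the processed pseudogene Gm5514. It stood at 23.4 ± 4.56 and 21.6 ± 3.02 FPKM in control and NNMT cells (adjusted p = 0.506). Ldhb itself had 53.7 and 49.7 FPKM, so its level and the Ldha share of their sum carry the same limit. The Pgam1 copy Pgam1-ps2 went from 4.52 ± 0.519 to 3.74 ± 0.194 FPKM (adjusted p = 0.0308).

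Lactate dehydrogenase A fell and its partner B did not change by a detectable amount. Ldha (ENSMUSG00000063229, chr7:46841475-46855627), whose subunit favours lactate formation, stood at 658, 713 and 698 FPKM in the control libraries. It stood at 395, 433 and 391 FPKM in the NNMT libraries, so that the groups were far apart (1.697-fold lower; log2 fold change -0.76 with SE 0.0539, adjusted p = 1.04e-06). Ldhb, whose subunit favours the reverse reaction, had means of 53.7 ± 4.84 and 49.7 ± 3.78 FPKM with overlapping libraries (log2 fold change -0.11 with SE 0.0735, adjusted p = 0.221). It passed as lower without control replicate 2 (adjusted p = 0.0481). The Ldha share of the summed Ldha and Ldhb FPKM went from 92.8% ± 0.775 to 89.1% ± 1.24, without overlap (exact permutation p = 0.1). Pdk1, the kinase that shuts pyruvate dehydrogenase and is a classic HIF target, had means of 7.59 ± 0.412 and 6.94 ± 0.792 FPKM with overlapping libraries (log2 fold change -0.12 with SE 0.0769, adjusted p = 0.201).

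The lactate transporter Slc16a1 rose slightly, from 28.5, 27.6 and 29.9 FPKM in the control libraries to 30.01, 34.5 and 31.4 FPKM in the NNMT libraries (log2 fold change 0.15 with SE 0.0585, adjusted p = 0.0423). The lowest NNMT library lay just over the highest control library. The call was lost without control replicate 1 or 2 or NNMT replicate 2 or 3 (adjusted p from 0.0743 to 0.144), and under 4 other settings, among them quantile normalization (0.0859) and medians of ratios scaling (0.116). Slc16a3, the HIF-induced lactate exporter, had a mean of at most 0.341 FPKM in either group and was not tested.

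Ordered by level, the enzymes of the lower pathway changed places. In control cells the order was Gapdh (1496 FPKM), Pkm (1004), Ldha (690 ± 28.05, from 658 to 713), Eno1 (644), Aldoa (552), Pgk1 (502), Tpi1 (438), Pgam1 (158) and Gpi1 (130.3). In NNMT cells Aldoa (465) and Tpi1 (412) came ahead of Ldha (406), Eno1 (385) and Pgk1 (208). Tpi1, Ldha and Eno1 overlapped in neighbouring pairs there, so the order among these 3 is within their spread. Summed over the 17 genes from hexokinase to lactate dehydrogenase, the level was 5739, 5858 and 5816 FPKM in the control libraries. It was 4649, 4818 and 4515 FPKM in the NNMT libraries, a difference of -19.7% between the means. As a share of all FPKM in a library the sum was 1.37% ± 0.0183 in control and 1.16% ± 0.0329 in NNMT cells. Without Pgk1 and Eno1, the shares were 1.098% ± 0.0164 and 1.01% ± 0.0290, still without overlap. Between the group means, the share differed by -15.1%, and by -7.70% without Pgk1 and Eno1. The sums rest mainly on abundant genes, whose values depend on the normalization. Quantile normalization moved the median log2 fold change of the 639 tested genes at 100 FPKM or more from -0.09 to 0.02. No test was made on these sums.

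The alpha subunit of HIF itself did not differ by a detectable amount. Hif1a (ENSMUSG00000021109, chr12:73901375-73947530) stood at 27.00, 26.4 and 28.1 FPKM in the control libraries and at 26.7, 26.9 and 30.9 FPKM in the NNMT libraries. The groups overlapped (log2 fold change 0.05 with SE 0.0613, adjusted p = 0.507). Epas1, which encodes the second alpha subunit and is typical of endothelium, had 4 reads in all control libraries and 26 in all NNMT libraries, under 0.1 FPKM in each. It was not tested here, and it passed when low genes were kept in (adjusted p = 0.0364).

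Both oxygen-sensing hydroxylases in the set fell. Egln1 (ENSMUSG00000031987, chr8:124908587-124949324), the main HIF prolyl hydroxylase and itself a HIF target, stood at 20.2, 21.6 and 21.5 FPKM in the control libraries. It stood at 13.4, 13.6 and 13.4 FPKM in the NNMT libraries, a narrow range far under the controls (1.57-fold lower; log2 fold change -0.61 with SE 0.0473, adjusted p = 1.92e-06). Egln3, a hydroxylase that low oxygen induces strongly, fell 1.27-fold, from 3.41 ± 0.112 to 2.69 ± 0.179 FPKM (log2 fold change -0.26 with SE 0.0646, adjusted p = 0.004999), also without overlap. Egln1 made up 86.1% ± 0.228 and 83.3% ± 1.05 of the summed Egln1 and Egln3 FPKM in control and NNMT cells (exact permutation p = 0.1). Egln3 lies on chromosome 12, where 51.5% of 373 tested genes fell, with a median of -0.17. The part of that shift in the Egln3 result was not tested.

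Of the 8 genes of the set known chiefly as hypoxia-induced, 6 were tested, 4 rose and 1 fell, beside 35.0% and 30.6% of all genes tested. Adm (ENSMUSG00000030790, chr7:110627661-110629820), the vasodilator peptide adrenomedullin, stood at 14.4, 14.5 and 15.6 FPKM in the control libraries and at 27.6, 27.4 and 30.04 FPKM in the NNMT libraries. Its libraries were tightly grouped and did not overlap (1.91-fold higher; log2 fold change 0.89 with SE 0.0538, adjusted p = 3.60e-07). Ndrg1 (ENSMUSG00000005125, chr15:66929318-66969640), a stress-responsive protein linked to differentiation, stood at 11.1, 10.3 and 10.8 FPKM in the control libraries. It stood at 20.3, 18.8 and 20.5 FPKM in the NNMT libraries, again without overlap (1.85-fold higher; log2 fold change 0.83 with SE 0.0525, adjusted p = 4.75e-07). Bnip3, a receptor for the removal of mitochondria, rose 1.23-fold, from 14.6 ± 0.5502 to 17.9 ± 2.28 FPKM (log2 fold change 0.27 with SE 0.0786, adjusted p = 0.0116). Its relative Bnip3l had means of 17.1 ± 1.03 and 18.1 ± 1.27 FPKM with overlapping libraries (log2 fold change 0.08 with SE 0.0629, adjusted p = 0.307). Higd1a, a small protein of the respiratory chain supercomplexes, rose 1.198-fold, from 18.4 ± 2.12 to 22.1 ± 1.08 FPKM (log2 fold change 0.25 with SE 0.0768, adjusted p = 0.0141), a call lost when low genes were kept in (adjusted p = 0.0523).

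Vegfa, the angiogenic growth factor and the most abundant of these 8 genes, fell slightly. It stood at 38.1, 43.2 and 42.3 FPKM in the control libraries and at 38.8, 36.4 and 33.9 FPKM in the NNMT libraries. The groups overlapped and the call was near the threshold (log2 fold change -0.17 with SE 0.0638, adjusted p = 0.0331). It was lost without control replicate 2 or 3 or NNMT replicate 3 (adjusted p from 0.106 to 0.136) and when low genes were kept in (0.0852). Vegfa lies on chromosome 17, where 49.4% of 542 tested genes fell, with a median of -0.15. The part of that shift in the Vegfa result was not tested. Ankrd37 and Car9, which HIF induces strongly in many cells, were at 0.816 and 0.575 FPKM and at 0.233 and 0.341 FPKM in control and NNMT cells by their means. Their libraries overlapped, and they were not tested.

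The direction of most called members could be set beside that of their chromosomal neighbours. Of the 21 called members, 20 lay on the same side of the median log2 fold change of the tested genes starting within 5 Mb as they lay of 0, and so did 92.2% of all called genes, so the count says nothing particular of the members. The exception was Slc2a1, with -0.32 where the median of 81 neighbours was -0.45. For Pgk1 the value was -1.27 beside -0.61 for 29 neighbours, and for Eno1 it was -0.74 beside -0.29 for 69. The neighbours' median was itself below 0 for 9 of the 11 members that fell and above 0 for 9 of the 10 that rose, beside 65.3% and 82.3% of all genes that fell and rose. While most X-linked genes fell, 100% of the 7 tested Y-linked genes rose, with a median of 2.84. On chromosome 16, 64.0% of 347 tested genes rose, with a median of 0.29. What lies behind these shifts was not tested. On autosomes outside 4 and 16, Ldha had -0.76 beside -0.11 (79 genes), Gpi1 -0.71 beside -0.18 (61 genes) and Egln1 -0.61 beside -0.01 (80 genes). Adm had 0.89 beside 0.05 (33 genes) and Pfkm 0.78 beside 0.10 (99 genes). Without the members on X and 4, the counts among 27 tested members were 10 higher and 8 lower. These shares, 37.0% and 29.6%, were close to the 36.2% and 27.3% of all tested genes outside X, Y, 4 and 16.

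**Figure D4:**
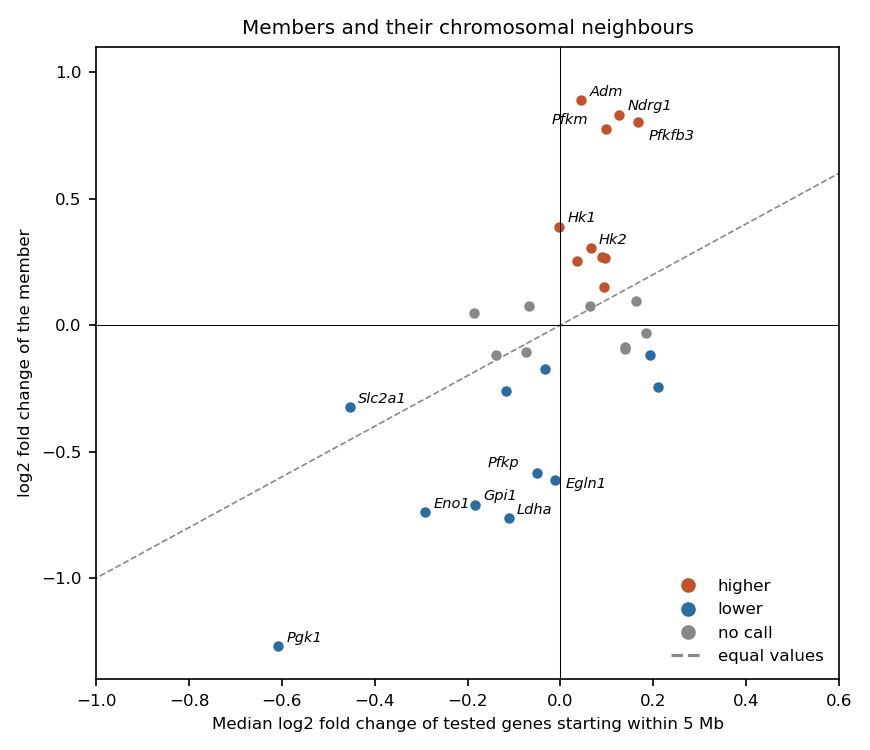
Log2 fold change of each tested member against the median log2 fold change of the tested genes that start within 5 Mb of it, with a dashed line of equal values. Pgk1, with -1.27, lies under its neighbours' median of -0.61, and Slc2a1 lies above its own. Adm, Ndrg1, Pfkfb3 and Pfkm stand high over medians between 0.05 and 0.17.

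Other genes of these pathways were read from lists written with earlier results of these data known. Of 103 tested, 42 rose and 34 fell (40.8% and 33.0%, beside 35.0% and 30.6% of all genes tested). Among 15 tested glycolysis genes outside the set, 7 rose and 5 fell, with a median of 0.10. Adpgk, the ADP-dependent glucokinase, rose from 19.96 ± 0.918 to 28.99 ± 1.27 FPKM (log2 fold change 0.52 with SE 0.0529, adjusted p = 1.35e-05). Minpp1, a phosphatase that can also act on bisphosphoglycerate, rose 1.42-fold, and Eno3, the muscle enolase, rose 1.27-fold. Bpgm, which makes bisphosphoglycerate, was 1.38-fold lower and the transporter Slc2a8 1.39-fold lower, beside Eno1b described above. Among the enolase genes tested, Eno2 and Eno3 thus rose where Eno1 and its copy Eno1b fell. How reads shared by Eno1 and Eno1b were placed is not known, so the fall of Eno1b may not be separate from that of Eno1.

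In the branch that takes glucose phosphate into pentoses, 8 of 10 tested genes fell, beside 30.6% of all genes tested, with a median of -0.42. Of the 10, 5 lie on X or 4, chromosomes whose medians were below 0, and Pgls and Taldo1 were without a call. G6pdx, the NADPH-making entry enzyme, went from 34.6 ± 0.586 to 19.2 ± 1.38 FPKM (log2 fold change -0.82 with SE 0.0554, adjusted p = 7.57e-07), Pgd was 1.62-fold lower and the ribose phosphate activator Prps1 was 2.096-fold lower. G6pdx and Prps1 are X-linked and Pgd lies on chromosome 4. Of the 5 tested genes outside X and 4, 3 fell, beside 27.3% of all tested genes outside X, Y, 4 and 16, with a median of -0.21.

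At the fate of pyruvate, 7 of 15 genes rose and 3 fell, beside 35.0% and 30.6% of all genes tested. Pdha1, the catalytic subunit of pyruvate dehydrogenase, went from 59.5 ± 1.02 to 32.7 ± 1.24 FPKM (log2 fold change -0.84 with SE 0.04601, adjusted p = 1.79e-07), and Pdk3, a kinase that inhibits that complex, went from 22.4 ± 0.858 to 9.63 ± 1.02 FPKM (log2 fold change -1.14 with SE 0.0691, adjusted p = 3.69e-07). Both are X-linked. The third, Pdhb, fell 1.31-fold. Rises were seen for the inhibitory kinase Pdk4 (1.48-fold), for Pcx, which carboxylates pyruvate (1.33-fold), and for Pck2, the mitochondrial enzyme that makes phosphoenolpyruvate (1.39-fold). Kinases of the pyruvate dehydrogenase complex therefore moved in different directions, with Pdk1 and Pdk2 without a call.

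Of 19 tested regulators of HIF, 7 rose and 5 fell (36.8% and 26.3%, near the 35.0% and 30.6% of all genes tested), with a median of 0.01. Vhl, the ubiquitin ligase subunit that recognises hydroxylated HIF alpha, rose from 10.99 ± 0.7496 to 14.3 ± 0.314 FPKM (log2 fold change 0.36 with SE 0.0565, adjusted p = 2.89e-04). Arnt2, a partner of the alpha subunits, rose 1.46-fold and the deubiquitinase Usp20 1.37-fold. The chaperone Hsp90ab1, the elongin subunit Elob of the VHL complex and the scaffold Rack1 were 1.37-fold, 1.26-fold and 1.24-fold lower. Components of the same degradation complex, Vhl and Elob, thus had opposite signs. Of its other listed components, Rbx1 rose (log2 fold change 0.21, adjusted p = 0.00487), and Eloc and Cul2 were without a call.

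Further hypoxia-induced genes rose in 16 of 31 tested cases and fell in 7 (51.6% and 22.6%, beside 35.0% and 30.6% of all genes tested), with a median of 0.16. Tmem45a, a membrane protein on chromosome 16, rose from 1.91 ± 0.0783 to 12.2 ± 1.29 FPKM (log2 fold change 2.17 with SE 0.0747, adjusted p = 8.45e-09). P4ha2, a collagen prolyl hydroxylase, rose 1.87-fold, and Lox, which cross-links collagen, rose 2.06-fold, and both also belong to matrix formation. Inhba, the activin subunit, went from 37.03 ± 4.48 to 11.3 ± 1.93 FPKM (log2 fold change -1.63 with SE 0.1101, adjusted p = 7.65e-07). Kdm4c, a histone demethylase on chromosome 4, and Nampt, the rate-limiting enzyme of NAD salvage, were 1.46-fold and 1.38-fold lower. Outside X, Y, 4 and 16, 12 of 24 rose and 5 fell, beside 36.2% and 27.3% of all genes tested there.

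**Figure D5:**
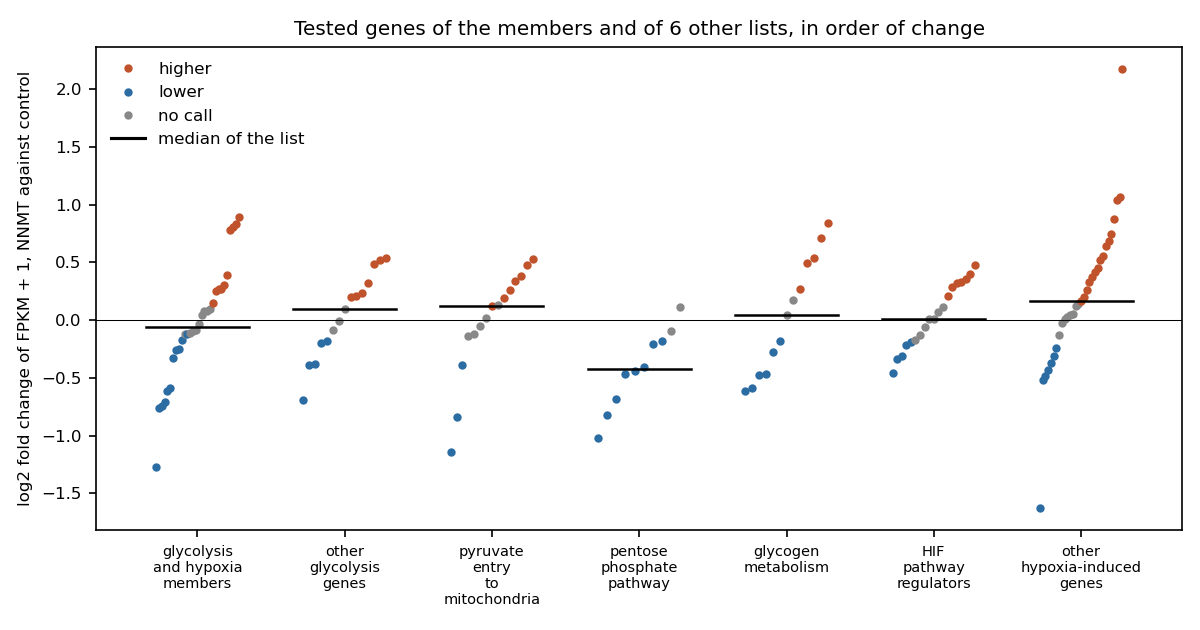
Log2 fold change on FPKM + 1, NNMT against control, of the tested members and of the tested genes of 6 other lists, sorted within each list, with a line at each median. The members' median is -0.06, that of the pentose phosphate pathway -0.42 and that of the other hypoxia-induced genes 0.16. Colours show genes past an adjusted p of 0.05, and each list other than the pentose phosphate pathway has calls in both directions.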

How the data were processed

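RNA sequencing gave 1 deposited table with a column per library. CASAVA, STAR 2.5 and the build mm10 are named in the submitters' processing notes. The sources used here do not state the read counter, the annotation release or the strandedness. The deposited values were taken to be FPKM, since the header gives no unit and values move in steps whose size, for 71.1% of the genes above 0, matches the longest GENCODE M21 transcript. With, for the other genes, the shortest length that gave whole numbers in every library, whole reads were recovered for all 20528 genes above 0 (tolerance 0.01 of a read), 99.9% of each implied library total. The recovered depth made a read on 1 kb worth 0.0250 to 0.0316 FPKM. GENCODE M21 (GRCm38) supplied symbols and coordinates and paired 34490 of 35275 rows, and promoter sequences are from RefSeq (GRCm38.p6).

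The test was limma 3.58.1 (R 4.3.3) on log2(FPKM + 1) of genes whose mean reached 1 FPKM (trend, robust moderation, two-sided, Benjamini-Hochberg over 10882 genes). Folds needed at least 10 reads per group. Family shares were compared with an exact two-sided permutation test. Copies were sought with blastn 2.17.0. Libraries of a group differed beyond counting noise (chi-square over its degrees of freedom 6.36 to 23.9), and none was taken to be a library deposited more than once; this does not show that the cultures were separate. Counts were also simulated for 10850 tested genes, 200 of them changed, with the same spread beyond counting noise (dispersion 0.00244) for every gene. In these counts limma recovered 66% of changes of 1.25-fold, 94% of 1.5-fold, 100.0% of 2-fold and 96% of 4-fold, with 17 false calls. In the real libraries 65.6% of the genes tested passed, and their spread need not be equal. The simulated rates therefore cannot be carried over to the calls reported here.

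The column labelled NNMT without a number was used by its group alone. The 36 members and all lists were chosen with earlier results of these data known, so no p is given over a list. Full values are given for called members whose log2 fold change was 0.5 or more in size, for the HIF alpha genes and for each enzyme step, and of each other list up to 3 genes per direction with the smallest adjusted p. Ero1a was not found by that symbol and was not used. Alternatives were quantile normalization, medians of ratios scaling, a pseudocount of 0.1, no filter, a minimum mean of 5 FPKM, no trend, limma-voom on recovered reads, each library left out, a replicate block and members outside X, Y, 4 and 16. The 4 numbered libraries without the block, and other pathway genes outside those chromosomes, were added after the data were seen.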

Additional observations from a re-analysis of the deposited data

How the results depend on the processing

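Over 15 alternatives the members called higher numbered 9 to 11 and those called lower 9 to 13, and 16 of the 21 called members passed in the same direction under each alternative that gave a value. The exceptions were Aldoa, Pkm, Slc16a1, Vegfa and Higd1a. Signs turned under quantile normalization for Tpi1 (0.0712), Gapdh (0.18) and Pkm (0.11). That setting moved the median of the 639 tested genes at 100 FPKM or more from -0.09 to 0.02. Leaving out single libraries moved Pgam1 from -0.0681 to 0.00427 (above 0 without the unnumbered NNMT library), Hif1a from -0.0187 (without NNMT replicate 3) to 0.0791 (without NNMT replicate 2) and 0.0842 (without the unnumbered library), the Aldoa share of its family from -0.00543 to 0.00704 percentage points and the Slc16a1 share from -0.132 to 0.0654 (without control replicate 2) and 0.109 (without the unnumbered library). The Aldoa share was negative without control replicate 2 or NNMT replicate 3 (-0.00222), and the Slc16a1 share without control replicate 3 (-0.0464) or NNMT replicate 2. Leaving out a library gave 6390 to 7120 calls over all genes, 9 to 10 members higher, 9 to 12 lower, 67 to 80 other pathway genes called and 9 to 11 shares without overlap. Among the table's columns, numbers are shared by control and NNMT replicates 2 and 3. The third NNMT column carries no number and was not paired by elimination, so these samples share only a number. Deviations correlated at 0.212 for replicates 2, at 0.110 for replicates 3, at 0.314 for control replicate 1 with the unnumbered library and at 0.212 for control replicate 3 with NNMT replicate 2. A replicate block on these 4 libraries gave 11 members higher and 11 lower (7109 genes called), beside 10 and 11 (6628 genes) without the block. Bnip3l was called with the block (0.14, adjusted p = 0.0453) and not in the same libraries without it (adjusted p = 0.121). Genes under 1 FPKM, such as Slc2a3, Epas1 and Aldoc, rest on 4 to 166 reads per group, which limits what can be said of them.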

Other observations

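Glycogen metabolism, which draws on the same glucose phosphate pool, had genes that rose and genes that fell. Of 13 tested 5 rose and 6 fell, beside 35.0% and 30.6% of all genes tested, with a median of 0.04. Stbd1, which anchors glycogen to membranes, rose from 3.69 ± 0.447 to 7.38 ± 0.872 FPKM (log2 fold change 0.84 with SE 0.0914, adjusted p = 2.16e-05), and Gsk3b, a kinase that inhibits glycogen synthase and lies on chromosome 16, rose 1.69-fold. Its close relative Gsk3a fell from 35.6 ± 0.316 to 25.4 ± 1.33 FPKM (log2 fold change -0.47 with SE 0.0495, adjusted p = 1.68e-05), so the paired kinases differed in sign. The phosphorylase kinase subunits also differed: Phkb rose 1.45-fold, and the X-linked alpha subunits Phka1 and Phka2 were 1.75-fold and 1.71-fold lower.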
